A study of Aspergillus luchuensis with 6 samples.

Results

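The narrowest transcription start sites in CAGE data of Aspergillus luchuensis mut. kawachii, a white koji mould used to make shochu, were examined. CAGE (cap analysis of gene expression) reads short tags from the capped ends of RNA molecules. The first base of a tag gives a start position, and tags per position give how often it was used. Start positions were joined into tag clusters across all libraries pooled. The width of a cluster is the distance between the positions at which 10% and 90% of its pooled tags are reached, both ends included. Clusters of at most 10 bp and of 5 to under 300 CPM (tags scaled to the pooled total) were taken from the DF scaffolds other than DF126582.1. This gave 633 narrow clusters, which are 6.55% of the 9658 clusters in that level range on those scaffolds. The whole series holds 21824 clusters of at least 1 CPM. The members were chosen by their pooled widths and levels, so both are given as descriptions without a test.

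The libraries came from mycelium of 2 strains, with 3 libraries each. The control strain is labelled ctrl345, and the other strain has a disrupted laeA gene and the strain label sirD. The labels do not say whether the strains share a parent, and differences that do not come from laeA cannot be told apart from those that do. Both were grown with shaking at 30 °C, for 36 h in M medium and then for 12 h in CAP medium. Nothing in the labels says that the libraries of a strain came from separate cultures, so p-values measure the spread between these libraries only. Because mycelium was taken whole, fewer cells of a kind and less RNA per cell cannot be told apart.

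How tightly RNA polymerase II picks its start position differs between promoters. In animals, promoters with a TATA box tend to start transcription at a few neighbouring bases, whereas promoters without one often use many. In Saccharomyces cerevisiae the polymerase scans downstream of the promoter for a start position, and many genes there have several. LaeA is a putative methyltransferase known in Aspergillus species as a global regulator of secondary metabolism. The question that the series puts to these clusters is which of them depend on laeA.

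Libraries held 14.8 to 19.3 M tags, and every control library held more than every disruptant library. The narrow clusters took 1.62% to 2.10% of the tags of a library. Scaffold DF126582.1, which was left out of the narrow clusters, took 11.2%, 9.42% and 17.2% of the tags of the controls and 7.49%, 14.9% and 17.3% of those of the disruptants, each in order of replicate number. No pair of libraries within a strain was a copy, with a chi-square per degree of freedom of 32.5 to 94.6 across clusters. No position is paired with a gene in the sources used here and no genome of this build was used. Clusters are therefore named by scaffold, strand and position, no start site is given a gene or a sequence, and the targeted gene was not analysed here.

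The narrow clusters were of unlike kinds. Widths fell into a spike at 1 bp and the lower tail of a broad hump, with few clusters between them. There were 258 clusters of 1 bp, 49 of 2 bp, 20 of 4 bp, 21 of 5 bp and 69 of 10 bp. Just outside the limit there were 80 clusters of 11 bp. The 69 clusters of 10 bp and the 80 of 11 bp had median dominant shares of 43.5% and 41.3%, where the dominant share is the part of a cluster's tags that start at its most used position. The limit of 10 bp thus fell on a slope and not in a gap.

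**Figure D1:**
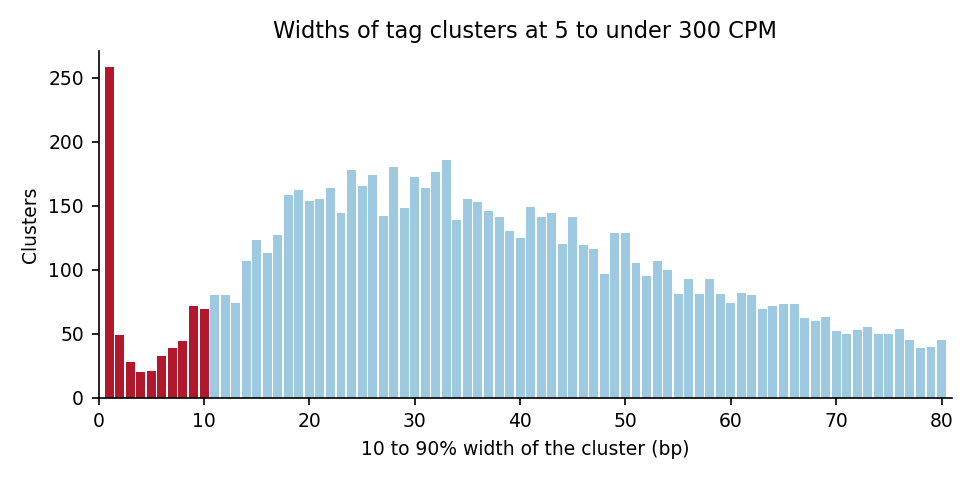
Number of tag clusters (vertical axis) by width in bp (horizontal axis, up to 80 bp) among the 9658 clusters of 5 to under 300 CPM. Red bars are the 633 narrow clusters. The bar at 1 bp stands at 258 clusters, the bars at 4 and 5 bp at 20 and 21, and the counts climb again towards the broad hump.

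The narrow clusters were therefore described in 3 classes by width, a division made after the widths had been seen. The 258 clusters of 1 bp are called single-base clusters here. Their median dominant share was 99.0%. In 107 of them only 1 position reached 0.1 CPM pooled. Weaker positions around it were not counted, so all counted tags lay at that position by construction. The 118 clusters of 2 to 5 bp had a median dominant share of 69.1%, and 87.0% of their tags started within 1 bp of the dominant position. The 257 clusters of 6 to 10 bp had a median dominant share of 44.9%, with 84.4% of tags within 5 bp. For comparison, the dominant share was 26.3% in the 4315 clusters of 11 to 40 bp and 17.0% in the 4710 wider ones at the same levels.

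The second most used position also differed in place. In 68 of the 118 clusters of 2 to 5 bp (57.6%) it was the base next to the dominant one, upstream in 37 and downstream in 31. It was the next base in 26.1% of the clusters of 6 to 10 bp. Of the 151 single-base clusters with any other counted position, 109 had their second position more than 1 bp downstream. The second position held a median of 1.80% of the tags.

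Shapes in single libraries were close to the pooled ones for single-base clusters and less so for wider ones, although the pooled widths that chose the members come from the same libraries. The dominant position of the pooled tags was also the most used position, or tied for it, in all 6 libraries in 257 of 258 single-base clusters. In the 107 with 1 counted position, that lead and a width of 1 bp were fixed wherever the cluster held tags. No wider cluster was of this kind. The pooled dominant position led or tied in all 6 libraries in 92 of 118 clusters of 2 to 5 bp (78.0%). This held in 181 of 257 clusters of 6 to 10 bp (70.4%). It held in 54.2% of the clusters of 11 to 40 bp. The median width per library was 1 bp in every library for single-base clusters and 8 or 9 bp for those of 6 to 10 bp. Sampling of few tags widens or narrows a cluster by chance, and 436 of the 633 clusters (68.9%) were at most 10 bp wide in every library. This was so for 91.9% of single-base clusters and 41.2% of those of 6 to 10 bp.

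Levels did not part the classes. The median pooled level was 11.7 CPM for single-base clusters, 9.48 CPM for those of 2 to 5 bp and 12.4 CPM for those of 6 to 10 bp. The strongest member was on the minus strand of DF126464.1, positions 3670 to 3743, with a pooled level of 290.0 CPM and a width of 10 bp. It held 308 ± 94.3 CPM in control and 315 ± 62.4 CPM in disruptant libraries (SD, n = 3, CPM of effective library sizes). Above the upper limit lay 33 further narrow clusters, the nearest at 310 and 328 CPM. The weakest members were at 5.01 and 5.02 CPM, and narrow clusters of 4 to under 5 CPM, outside the rule, numbered 132.

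The place of a narrow cluster along its strand also differed between the classes. A single-base cluster usually lay a short way downstream of another cluster. From the dominant position of the nearest upstream cluster on the same strand, the median distance was 134.5 bp, with quartiles of 111 and 190 bp. Of the 258 single-base clusters, 164 (63.6%) lay 100 to 200 bp downstream of that cluster and 230 (89.1%) at most 300 bp downstream. A cluster lay at most 300 bp upstream in 66.1% of those of 2 to 5 bp and 40.5% of those of 6 to 10 bp. The share was 26.8% for widths of 11 to 40 bp, 34.8% for wider ones and 39.9% for all clusters of at least 1 CPM. Clusters at most 20 bp apart were joined by construction, so short distances cannot occur.

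**Figure D2:**
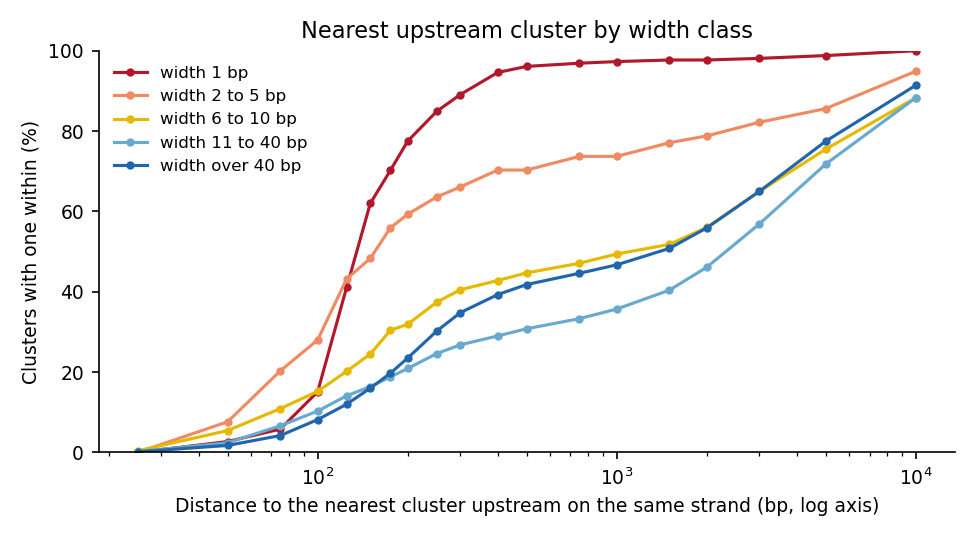
Share of clusters (vertical axis, %) that have another cluster on the same strand within a given distance upstream (horizontal axis, bp between dominant positions, log axis), for 5 width classes at 5 to under 300 CPM. The curve of the 258 single-base clusters climbs between 100 and 200 bp and reaches 89.1% at 300 bp, while those of widths over 10 bp stay at 26.8% and 34.8% there.

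Most single-base clusters also had a stronger cluster behind them. Within 2000 bp upstream on the same strand, 235 of 258 (91.1%) had a cluster with a higher pooled level. The count was 80 of 118 (67.8%) for 2 to 5 bp and 73 of 257 (28.4%) for 6 to 10 bp. Among wider clusters at the same levels it was 20.5% for 11 to 40 bp and 25.9% for the rest. The order of the 3 narrow classes also held at 80 to under 300 CPM, with 26 of 30 single-base clusters, 2 of 7 of 2 to 5 bp and 1 of 30 of 6 to 10 bp (3.33%). Clusters of 6 to 10 bp did not stand above both wider classes there, which had 2.56% for 11 to 40 bp and 5.30% for the rest. At 20 to under 80 CPM they were below both, with 7.41% against 9.44% and 14.1%. Both the 2000 bp and the 300 bp limits were chosen after the positions had been seen.

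Clusters of 6 to 10 bp stood alone about as often as wider ones. No other cluster lay within 1000 bp on the same strand in 88 of 257 of them (34.2%), in 14 of 118 of those of 2 to 5 bp and in 4 of 258 single-base clusters. The share was 39.8% for widths of 11 to 40 bp, 29.6% for wider clusters and 27.0% for all clusters of at least 1 CPM. A cluster on the opposite strand lay at most 200 bp away in 28 of 257 clusters of 6 to 10 bp (10.9%) and in 6 of 258 single-base clusters (2.33%). For widths of 11 to 40 bp this share was 22.6%. The clusters of 6 to 10 bp with no stronger cluster upstream numbered 184. Whether the single-base clusters are promoters was not tested, so they are called clusters here, and how the aligner treated tags that map only in part is not given in the sources used here.

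The 5 strongest single-base clusters followed this arrangement in part, since 3 of them had a stronger cluster within 2000 bp upstream and 2 did not. On the minus strand of DF126468.1, position 552849 took 99.2% of the tags of positions 552836 to 552850. The cluster held 262, 239 and 335 CPM in the controls and 235, 346 and 277 CPM in the disruptants, which overlap. Its nearest upstream cluster, of 176 CPM, was weaker and 114 bp away, and its tags came to 133%, 136% and 178% of that cluster's tags in the controls and 132%, 176% and 149% in the disruptants. In DF126457.1 (plus strand), position 554770 took 99.0% of the tags of a cluster of 283 CPM, with a cluster of 289 CPM lying 318 bp upstream. On the plus strand of DF126460.1, position 218704 took 99.1% of a cluster of 252 CPM, with a cluster of 299 CPM lying 333 bp upstream. Position 178294 on the plus strand of DF126456.1 lay 254 bp downstream of a cluster of 534 CPM, and its cluster held 225 CPM. The other without a stronger cluster upstream was position 523173 on the minus strand of DF126455.1, with 223 CPM. No cluster lay within 2000 bp upstream of it, and the nearest one, of 4.38 CPM, was 2068 bp away.

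Over the 230 single-base clusters with a cluster at most 300 bp upstream, the level was a median of 42.0% of that cluster's, with quartiles of 11.9% and 116%. The single-base cluster was the weaker of the pair in 164 of 230. Per library the median ratio was 43.8%, 43.4% and 44.8% in the controls and 41.0%, 42.9% and 41.0% in the disruptants. The ratio varied little between replicates: the median SD of its log2 value was 0.198 in control and 0.184 in disruptant libraries (n = 3 each). Over all 8706 pairs of clusters so placed it was 0.400 and 0.401, and over the 1155 pairs with a cluster of 11 to 40 bp 0.346 and 0.345. Tag counts were not matched between these sets. The median level was 4.32 CPM over all clusters of at least 1 CPM, against 11.7 CPM for single-base clusters. In the pairs, clusters of 11 to 40 bp stood at a median of 282% of their upstream cluster. What counting error adds to these spreads was not tested.

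Fold changes between the strains ran alongside those of the upstream cluster. Over the 230 pairs the log2 fold changes of the single-base cluster and of its neighbour correlated with Pearson's r = 0.82 and Spearman's rho = 0.78, across pairs that share the same 6 libraries. The median absolute difference between both log2 fold changes was 0.116, against 0.354 over all pairs of clusters so placed, whose tag counts were not matched. The estimates had the same sign in 193 of 230. Neighbours of other widths also changed together. Over 78 pairs with a cluster of 2 to 5 bp Pearson's r was 0.94 and Spearman's rho 0.72. These pairs include a cluster without tags in the disruptants, whose fitted change is no measured size. Over 104 pairs with a cluster of 6 to 10 bp r was 0.62 and rho 0.56. Over all 8683 pairs with both estimates r was 0.77 and rho 0.65.

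**Figure D3:**
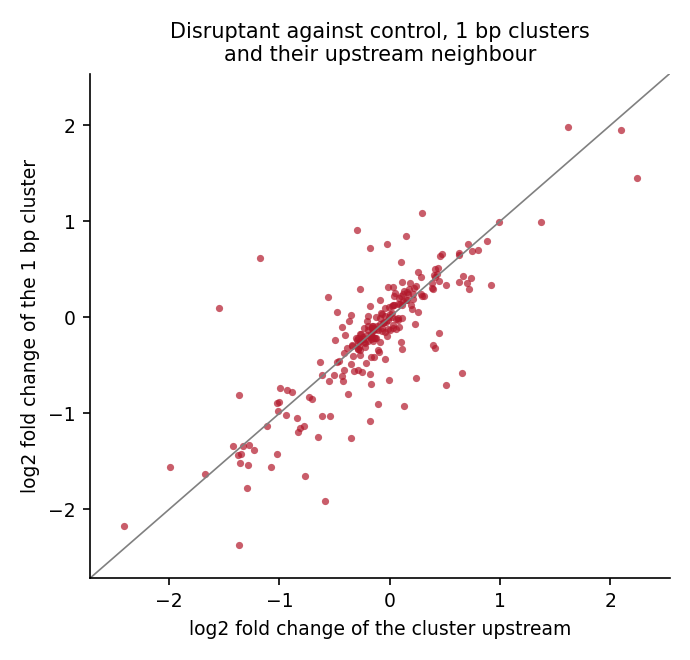
Log2 fold change of disruptant over control for 230 single-base clusters (vertical axis) against that of the nearest cluster at most 300 bp upstream (horizontal axis). Each point is 1 pair and the line marks equal change. The points follow the line, with a median absolute difference of 0.116.

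A test chosen after these values had been seen asked whether the ratio to the upstream cluster differed between the strains. None of the 230 single-base clusters was called by the quasi-likelihood test of edgeR after Benjamini-Hochberg adjustment, although 9 had an unadjusted p under 0.05. A limma test of the log2 ratio, the other tool run, called the same number of narrow clusters as edgeR, 2 of 411. Over all 8585 pairs tested 0.431% were called. Such counts do not show that the ratios were the same in both strains.

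Both narrow clusters whose ratio was called were 6 to 10 bp wide and fell while the cluster behind them did not. The clusters behind them were weak, with pooled levels of 5.88 and 1.90 CPM against 13.6 and 15.9 CPM, in the order given here. In DF126451.1 (plus strand), positions 330475 to 330504 gave 286, 532 and 447 tags in the controls and 58, 52 and 37 in the disruptants. The log2 fold change of the cluster was -2.93, while the cluster 268 bp upstream had a log2 fold change of 2.17 (log2 change of the ratio -5.06, SE 0.34, edgeR adjusted p = 0.00112). On the plus strand of DF126458.1, positions 255005 to 255042 gave 592, 535 and 411 tags in the controls and 56, 23 and 42 in the disruptants. Its log2 fold change was -3.49, against 0.90 for the cluster 160 bp upstream (log2 change of the ratio -4.38, SE 0.52, edgeR adjusted p = 0.0135). With control replicate 1, control replicate 2 or disruptant replicate 3 left out, 1 of these 2 calls remained.

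The level of each cluster was compared between the strains with edgeR's quasi-likelihood test over all clusters. Of 632 narrow clusters tested, 67 (10.6%) differed at a Benjamini-Hochberg adjusted p under 0.05, where the share over all 21803 clusters tested was 8.11%. Of the 67, 24 were higher in the disruptant (background 4.1%) and 43 lower (background 4.0%). Their median absolute log2 fold change was 1.93, against 1.73 over all 1768 clusters called, and 64 changed by at least 1. The libraries of the strains did not overlap in 187 narrow clusters (29.6%), close to the background of 29.3%.

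The calls were spread unevenly over the widths. Among single-base clusters 10 of 258 were called (3.88%), 4 higher and 6 lower. Among clusters of 2 to 5 bp 16 of 117 were called (13.7%), 2 higher and 14 lower. Among clusters of 6 to 10 bp 41 of 257 were called (16.0%), 18 higher and 23 lower. At the same levels the share was 10.1% for widths of 11 to 40 bp and 6.67% for wider clusters. Of the 184 clusters of 6 to 10 bp without a stronger cluster upstream, 36 were called (19.6%), 17 higher and 19 lower. These shares describe lists of clusters and were not tested against each other.

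Of the libraries left out in turn, control replicate 3 moved the number of calls most. Without it, 114 narrow clusters were called (background 10.3%), 26 higher and 88 lower. These held 63 of the 67 calls of the full fit, against 44 to 55 kept with any other library left out. The number among single-base clusters without control replicate 3 was 28 in place of 10, 24 of them lower. With the share of tags on DF126582.1 as a covariate, a fit added after the data had been seen, 100 were called (15.8%, background 12.2%), 34 higher and 66 lower.

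All 10 called single-base clusters moved the way of their nearest upstream cluster, which in 8 of the 10 was itself called in that direction. On the minus strand of DF126449.1, positions 25991 to 26055 gave 5567, 4879 and 3612 tags in the controls and 1628, 1616 and 1579 in the disruptants. The log2 fold change was -1.34 (SE 0.20, edgeR adjusted p = 0.00511), and that of the cluster of 1659 CPM lying 122 bp upstream was -1.42. In DF126538.1 (plus strand), positions 11988 to 11996 gave 70, 52 and 64 tags in the controls and 170, 297 and 171 in the disruptants. The log2 fold change was 1.98 (SE 0.34, edgeR adjusted p = 0.00888), against 1.62 for the cluster 161 bp upstream.

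Neighbours of called clusters were often called too. The nearest cluster on the strand lay at most 2000 bp away for 35 of the 43 that fell, and it was called lower for 19 of these and higher for 1. It lay as near for 17 of the 24 that rose, and was called higher for 5 of these and lower for 0. For the 503 clusters with a neighbour so near that were not themselves called, 5 neighbours were higher and 11 lower. The labels name no batch, and these counts come from the same 6 libraries.

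The 10 largest rises by the naming rule (called, at least 5 CPM in the higher strain, no overlap between the strains' libraries) had log2 fold changes of 1.79 to 4.24. Of these, 7 were clusters of 6 to 10 bp, 1 was 2 bp wide and 2 were single-base clusters. The largest was on the plus strand of DF126460.1, positions 690384 to 690410, 7 bp wide. It held 5, 41 and 7 tags in the controls and 223, 352 and 274 in the disruptants, so that every disruptant library was well above every control. The level was 0.980 ± 1.07 CPM in control and 19.0 ± 6.20 CPM in disruptant libraries (SD, n = 3), 19.4-fold higher (log2 fold change 4.24 with SE 0.65, adjusted p = 0.00549 by edgeR). Without control replicate 2, which held most of the control tags, the log2 fold change was 5.69. No cluster lay within 2000 bp upstream of it on its strand.

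The next rise was on the minus strand of DF126453.1, positions 208026 to 208060, 8 bp wide. It held 107, 50 and 55 tags in the controls and 844, 803 and 1284 in the disruptants, a 16.1-fold difference in CPM (log2 fold change 4.01 with SE 0.39, adjusted p = 0.000733 by edgeR). The third was on the plus strand of DF126450.1, positions 193222 to 193235, 7 bp wide. The controls lay close together there, at 29, 29 and 27 tags, and the disruptants held 143, 278 and 165 (log2 fold change 3.00 with SE 0.36, adjusted p = 0.00178 by edgeR). The fourth, on the minus strand of DF126447.1, positions 381191 to 381225, reached 34.2 ± 5.27 CPM from 6.93 ± 0.73 CPM (SD, n = 3). All of these stood without another cluster within 2000 bp upstream.

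The strongest of these 10 clusters was on the plus strand of DF126469.1, positions 432333 to 432362, 7 bp wide. Its levels were 57.8, 41.0 and 58.8 CPM in the controls and 199, 335 and 162 CPM in the disruptants, 4.41-fold higher on average (log2 fold change 2.14 with SE 0.30, adjusted p = 0.00372 by edgeR). Its nearest upstream cluster was 20366 bp away. A stronger called cluster with a smaller change was on the minus strand of DF126473.1, positions 48040 to 48298, which rose from 158 ± 25.9 to 465 ± 131 CPM (SD, n = 3), with a log2 fold change of 1.55 (SE 0.25, adjusted p = 0.00688 by edgeR). On the plus strand of DF126485.1, positions 226732 to 226752 reached 39.6, 39.4 and 39.6 CPM in the disruptants from 10.3, 7.56 and 14.3 CPM in the controls. One rise rests on less: the single-base cluster at position 399678 on the plus strand of DF126461.1 had a log2 fold change of 1.95 (edgeR adjusted p = 0.0153), and its call was lost without control replicate 1 (adjusted p = 0.0704) or 2 (adjusted p = 0.0613).

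The 10 largest falls by the naming rule had log2 fold changes of -11.33 to -4.11. They were 7 clusters of 6 to 10 bp and 3 of 2 to 5 bp, with no single-base cluster. In DF126456.1 (plus strand), positions 646757 to 646778, 9 bp wide, the controls held 290, 744 and 378 tags and the disruptants 4, 0 and 3. The level went from 26.8 ± 12.2 CPM to 0.147 ± 0.127 CPM (SD, n = 3), which is at the floor of 3 tags per library for 2 of the 3 disruptants (log2 fold change -7.40 with SE 0.62, adjusted p = 0.000388 by edgeR). Its nearest upstream cluster was 10548 bp away.

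A stronger fall in absolute level was seen on the minus strand of DF126457.1, positions 57862 to 57875, 8 bp wide. It held 1239, 2247 and 1359 tags in the controls and 45, 24 and 66 in the disruptants, going from 92.4 ± 26.5 to 3.00 ± 1.63 CPM (SD, n = 3). It was 30.8-fold lower (log2 fold change -4.95 with SE 0.42, adjusted p = 0.000398 by edgeR). A second cluster that fell lay elsewhere on the same strand of that scaffold, at positions 116721 to 116733, with 318, 468 and 321 tags in the controls and 22, 13 and 21 in the disruptants (log2 fold change -4.11 with SE 0.29, adjusted p = 0.000196 by edgeR). On the plus strand of DF126464.1, positions 329661 to 329691 dropped to 1.79 ± 0.66 CPM from 45.9 ± 18.4 CPM (SD, n = 3), 25.7-fold lower.

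Of the 10 falls, 2 had a stronger cluster within 2000 bp upstream. On the minus strand of DF126486.1, positions 90305 to 90308, 3 bp wide, lay 191 bp downstream of a cluster of 223 CPM and held 111, 234 and 233 tags in the controls against 1, 1 and 6 in the disruptants (log2 fold change -5.93 with SE 0.64, adjusted p = 0.00114 by edgeR). With 2 of the 3 disruptants under the floor of 3 tags its size is loosely set, and without disruptant replicate 3 the log2 fold change was -7.33. The other was the cluster at positions 707478 to 707482 on the plus strand of DF126461.1, 2 bp wide, where 16 of the 20 clusters tested within 10000 bp on either strand, itself included, were called lower. It held 238, 790 and 43 tags in the controls and 0 in each disruptant. Its fitted log2 fold change of -11.33 is no measured size at 0 tags (edgeR adjusted p = 0.0148). By the control mean of 19.6 CPM, against the floor of 3 tags per library, it was at least 98.7-fold lower. Control 3 by itself held 2.73 CPM. The call was lost without disruptant replicate 3 (adjusted p = 0.0575), and control 2 supplied 72.7% of its summed CPM. The fall on the minus strand of DF126450.1, positions 682479 to 682501, from 35.1 ± 8.02 to 1.34 ± 0.71 CPM (SD, n = 3), lay where 10 of 17 clusters within 10000 bp were called lower. Counted in the same way, 11 of 13 clusters were called lower around the fall on the minus strand of DF126476.1 and 9 of 13 around the one on DF126486.1. The former, at positions 130074 to 130110, had a log2 fold change of -4.72, or -4.07 without control replicate 3. Around the fall on DF126456.1 it was 1 of 11, the cluster itself, and around the one on DF126464.1 it was 2 of 36, with 3 called higher.

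**Figure D4:**
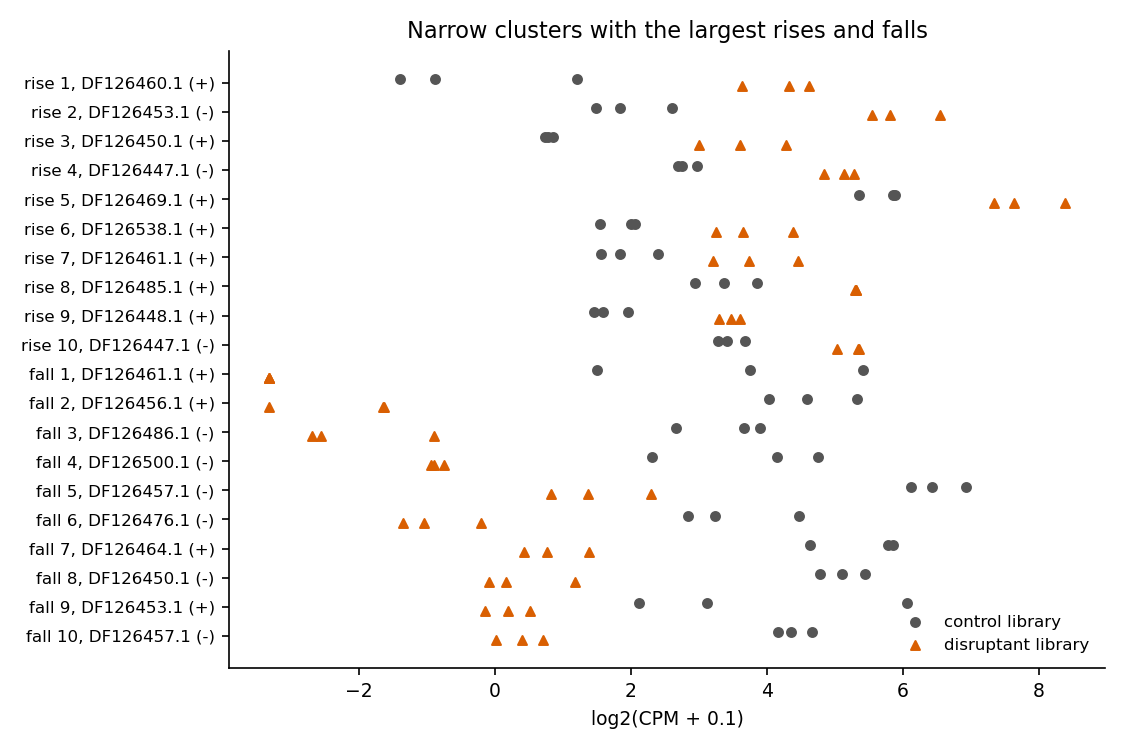
Level of the 10 largest rises and 10 largest falls among the narrow clusters, as log2(CPM + 0.1) (horizontal axis), with 3 control libraries (circles) and 3 disruptant libraries (triangles) per cluster. Clusters are listed by scaffold and strand in order of log2 fold change, from 4.24 down to 1.79 for rises and from -11.33 to -4.11 for falls, and the strains do not overlap in any of them.

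A few narrow clusters had most of their tags in 1 library. In 8 of the 633 clusters more than 50% of the summed CPM came from 1 library. On the minus strand of DF126532.1, positions 20566 to 20594 held 1394 tags in disruptant 2 and 1 to 4 tags in each of the others, and this was the member left untested by the filter on low counts. In DF126456.1 (plus strand), positions 251873 to 251898 held 1391 tags in disruptant 1, 46 in disruptant 3 and 6 to 32 in the others (edgeR adjusted p = 0.0996). On the plus strand of DF126453.1, positions 508536 to 508553 gave 76, 1239 and 135 tags in the controls and 24, 15 and 11 in the disruptants. This last cluster was among the largest falls (log2 fold change -4.63 with SE 1.02, adjusted p = 0.0275 by edgeR). Its call was lost without disruptant replicate 1, 2 or 3 in turn, with adjusted p of 0.0599, 0.0964 and 0.126, and its adjusted p over all alternatives ranged from 0.000853 to 0.126. Its size rested on control replicate 2, without which the log2 fold change was -2.57.

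Among narrow clusters behind a stronger one, those of 2 to 10 bp varied between libraries in a common way that did not follow the strains. For the 80 clusters of 2 to 5 bp downstream of a stronger cluster, the median log2 level against the mean of the 6 libraries was 0.58, 0.79 and -0.28 in controls 1, 2 and 3. It was -0.03, -0.85 and -0.20 in disruptants 1, 2 and 3. For the 73 clusters of 6 to 10 bp so placed, the medians were 0.46, 0.64 and -0.21 in the controls and 0.04, -0.72 and -0.32 in the disruptants. Control 3 thus stood with the disruptants, and its median was below that of disruptant 1 in both classes. The 235 single-base clusters behind a stronger one did not show this, with medians from -0.14 to 0.07 across the 6 libraries.

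The libraries in which these clusters were low were not in the same order as the share of tags on DF126582.1, which was lowest in disruptant 1, but the 3 libraries with the highest share (control 3 and disruptants 2 and 3) were the 3 lowest here. The part of that share in the level was not tested beyond the covariate fit above. The same split was not seen in the 184 clusters of 6 to 10 bp without a stronger cluster upstream, whose medians ran from -0.13 to 0.08 across the 6 libraries. In the 38 clusters of 2 to 5 bp without one, the medians were 0.22, 0.05 and 0.18 in controls 1, 2 and 3. They were -0.14, -0.18 and -0.17 in disruptants 1, 2 and 3, so control 3 stood with the controls there. The median SD of log2(CPM + 0.1) between control libraries was 0.691 for clusters of 2 to 5 bp behind a stronger one and 0.568 for those of 6 to 10 bp so placed. It was 0.341 for the 184 clusters and 0.335 over all clusters of at least 1 CPM.

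**Figure D5:**
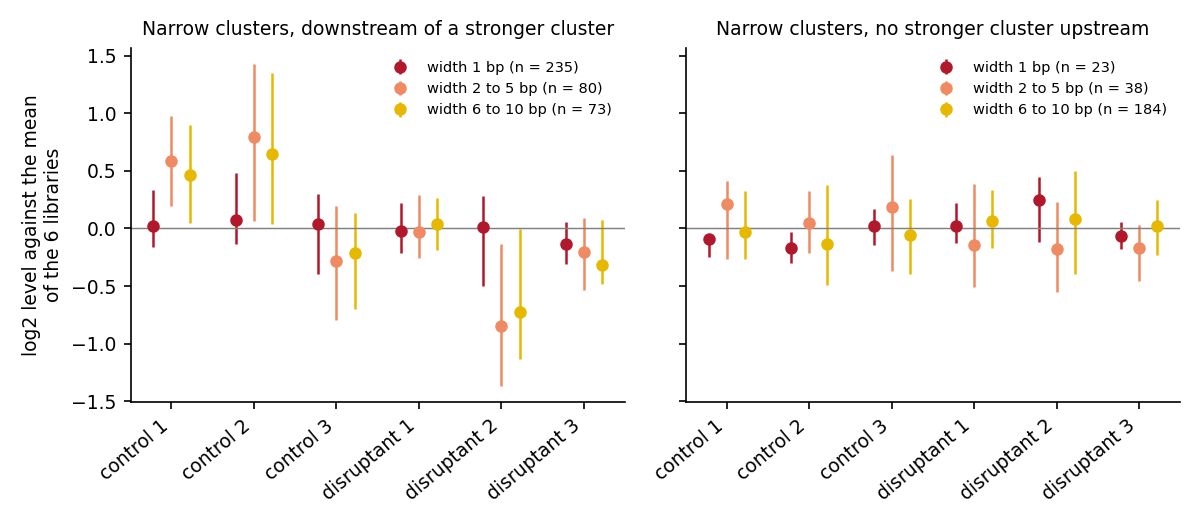
Level of the narrow clusters in each library (vertical axis, log2 against the mean of the 6 libraries), by width class, for clusters with a stronger cluster within 2000 bp upstream (left) and without (right). Points are medians over clusters and bars span the quartiles. On the left the classes of 2 to 5 and 6 to 10 bp are high in controls 1 and 2 and lowest in disruptant 2, with medians of 0.79 and -0.85 at the ends, and on the right no class shows that spread.

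Estimates among these clusters leaned downward. Estimates below 0 were found in 69 of 80 clusters of 2 to 5 bp behind a stronger cluster (86.2%) and in 59 of 73 of those of 6 to 10 bp (80.8%), with median log2 fold changes of -0.80 and -0.63. Among the 235 single-base clusters behind a stronger one they numbered 156 (66.4%), with a median of -0.16. Without a stronger cluster the classes differed. Estimates below 0 numbered 25 of 37 tested for 2 to 5 bp (67.6%), with a median of -0.23. Among the 184 clusters of 6 to 10 bp without a stronger cluster, estimates below 0 numbered 76 (41.3%), with a median of 0.14. For single-base clusters without one it was 8 of 23 (34.8%), with a median of 0.10. Over all clusters tested 50.5% of estimates were below 0. Of the 80 clusters of 2 to 5 bp behind a stronger one, 11 were called (13.75%, background 8.11%), 2 higher and 9 lower. Of the 73 of 6 to 10 bp, 5 were called (6.85%), 1 higher and 4 lower. Of the 235 single-base clusters so placed, 9 were called (3.83%). Together, 25 of the 388 narrow clusters behind a stronger one were called (6.44%). Of the 25, 6 were higher (background 4.1%) and 19 lower (background 4.0%). The stronger cluster itself was called lower for 13 of these 19.

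An example is the minus strand of DF126449.1, positions 827009 to 827075, 3 bp wide, which lay 825 bp downstream of a cluster of 3924 CPM. It held 2258, 4775 and 645 tags in the controls and 1127, 448 and 670 in the disruptants. Control 3 lay within the disruptants' range, and the cluster was not called (edgeR adjusted p = 0.127). By contrast, on the plus strand of DF126472.1, positions 100055 to 100109, 4 bp wide and with no stronger cluster upstream, held 7197, 4625 and 6575 tags in the controls against 408, 848 and 432 in the disruptants (edgeR adjusted p = 0.00173). Both were chosen after their values had been seen.

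The share of tags at the dominant position was compared between the strains apart from the level. Of 516 narrow clusters with at least 2 positions and 10 tags in every library, 0 were called, as were 0% of all 18902 clusters tested (edgeR quasi-likelihood test on dominant and other tags, adjusted p under 0.05). Unadjusted p was under 0.05 in 49 narrow clusters and in 1074 of all clusters, and a limma test of the log2 ratio called 0 narrow clusters, with 19 at an unadjusted p under 0.05. These counts do not show that the shares were the same in both strains.

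This count too moved with control replicate 3. Without it, 11 of 516 narrow clusters (2.13%, background 0.293%) had a higher dominant share in the disruptant, 10 of them single-base clusters, and all 11 lay behind a stronger cluster. In the cluster at positions 25991 to 26055 on the minus strand of DF126449.1 the share was 92.6%, 85.5% and 97.5% in the controls and 95.8%, 99.0% and 98.0% in the disruptants. Control 3 lay within the range of the disruptants, and controls 1 and 2 below it.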

How the data were processed

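CAGE libraries of 3 control and 3 laeA disruptant samples were grouped by their titles. The authors deposited 1 table of raw tag counts per start position and strand, 8582186 positions, without scaling. The submitters' processing notes name FastQC, BWA and bedtools. Their roles, the genome build and the treatment of multiply or partly mapping tags are not given in the sources used here. Positions are counted from 0 in the table and from 1 here, and the minus strand may follow another convention.

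Positions of at least 0.1 CPM pooled were joined at most 20 bp apart, and every tag between the first and last position was counted. Clusters of at least 1 CPM were fitted in edgeR 4.0.16 (R 4.3.3) with TMM, filterByExpr and the quasi-likelihood test, Benjamini-Hochberg adjusted over all clusters. CPM per library uses effective sizes of 13.7 to 18.5 M. The floor of 3 tags is 0.155 to 0.202 CPM of the totals and covers counting error only, as tags carry no molecular identifiers. Dominant and other tags were tested with a term per library, and so were pairs of neighbouring clusters. limma 3.58.1 and DESeq2 1.42.0 were alternatives. A stronger cluster upstream means a higher pooled level within 2000 bp between dominant positions. Named clusters were the 5 with the highest level, overall and at 1 bp, the 4 with most tags from 1 library, those at the limits of the rule, and the 10 largest called rises and falls without overlap and with at least 5 CPM. No cluster was called for its dominant share, so none was named for it. Members and lists were chosen with earlier results of these data known. The steps were tested on simulated counts, where changes of a log2 of 1 were mostly missed.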

Additional observations from a re-analysis of the deposited data

How the results depend on the processing

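The 67 narrow clusters called for level were 26 of 375 tested at a width of at most 5 bp (6.93%, background 8.11%) and 112 with DESeq2 (17.7%, background 11.9%). They were 118 with positions of at least 0.5 CPM (9.1% of 1297 tested, background 6.16%) and 122 with a joining distance of 10 bp (8.92% of 1368 tested, background 6.83%), which both change the clusters. With single libraries left out the count ran from 45 to 114 (background 3.41% to 10.3%), and 40 clusters were called in every such fit and in the full one. The replicate block gave 52 (8.23%, background 4.51%), of which 49 were among the 67, and left the other 2 counts at 0 and 2. The labels do not say whether replicate numbers pair the libraries. Deviations of same-numbered libraries correlated at 0.452, -0.415 and -0.076, which does not settle it. Calls for the dominant share, 0, were 1 with at least 1 tag in every library (DF126456.1, plus strand, positions 251873 to 251898, with most tags in disruptant 1) and 0 to 11 with each library left out. Calls for the ratio to the upstream cluster, 2, were 1 to 3 with each library left out. The cause was not tested. The 20 named rises and falls kept their direction in 270 recomputed values, and 7 of these lost the call, 1 of them under the replicate block (DF126461.1, plus strand, position 399678, edgeR adjusted p = 0.0562). Library scaling cancels in the dominant share, so no other scaling was run for it. Base composition and motifs were not examined.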
